A study of Homo sapiens with 15 samples.

Results

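The genes described here are those whose level differed between Caco-2 cells given fermentation fluid from 2% polydextrose and Caco-2 cells given butyrate alone. A gene was a member if its log2 value differed from the butyrate array by at least 1 log2 unit, a 2-fold difference, in the same direction in each of the 3 arrays of 2% fluid from vessels 2, 3 and 4, and if the brighter side was at log2 6 or more. Each gene was read from 1 probe set, the one with the highest mean over all 15 arrays. Of 19775 genes 7733 were bright enough to be compared, and 199 of these were members. With 2% fluid 145 members were higher than with butyrate, 1.88% of the bright genes, and 54 were lower, 0.698% of them. The differences from butyrate chose these genes, so they are given as a description and not tested.

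Caco-2 is a human line of colon carcinoma cells with epithelial character, and the cells were used before they differentiated. Treatment lasted 24 h, in a medium free of serum, with 1 Affymetrix array for each. The fluid groups received 10% by volume of cell-free fluid in which polydextrose, a glucose polymer that the small intestine digests poorly, had been fermented for 48 h in a colon simulator at 2%, 1% or 0%. Vessel 1 of the simulator stands for the ascending, vessel 2 for the transverse and vessel 3 for the descending colon, and vessel 4 stands for the last stretch with the rectum. The reference cultures had medium alone, 100 mM NaCl or 5 mM butyrate, with 1 array each. Every difference from butyrate or from medium therefore rests on 1 array on that side, with no replicate check. Each concentration came from 1 simulation, so a difference between simulations cannot be told apart from the concentration. The butyrate content of the fluids is not given in the sources used here. RNA came from whole cultures, and a shift in a share of the cells cannot be told apart from a shift in each cell.

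Butyrate, a short-chain fatty acid, is a product of the fermentation of fibre by gut bacteria. It feeds colon cells and inhibits histone deacetylases, enzymes that remove acetyl groups from histones, and in colon carcinoma lines it slows growth and alters the transcription of many genes. Genes known from a pair of programs are described at length below, while the activity of the programs themselves was not measured. In the first, ATF4, a transcription factor made when amino acids run short or when proteins misfold, switches on genes that make and import amino acids and others that act in cell stress. In the second, the transcription factor NF-kB switches on chemokines, the small secreted proteins with which epithelial cells attract leukocytes.

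Between 42.27% and 44.1% of genes reached log2 5, the level under which a value was treated as low, on each array. The epithelial genes EPCAM, CDH1, KRT8, KRT18, KRT19 and KRT20 lay between 12.23 and 13.92 in the 2% fluid and butyrate arrays, while the intestinal genes VIL1, CDX2, CDX1 and LGALS4 were under log2 5 in all of them. All leukocyte and endothelial markers were under log2 5 too, and so were the fibroblast markers other than COL1A1, which was at 7.66, 8.26 and 7.75 with 2% fluid and at 8.13 with butyrate. The 3′ probe set for ACTB exceeded the 5′ one, a measure of RNA quality, by 0.547, 0.547 and 0.551 in the 2% fluid arrays, against 0.585 with butyrate and 0.951 in medium.

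The rule fixed that members differed from butyrate in all 3 arrays, and the sizes were as follows. The 145 higher members had a median difference of 1.5 log2 units, or 2.83-fold, and the median range over their 3 fluid arrays was 0.30, with 0.98 the widest, for INPP4B. Of these, 29 differed by at least 2 log2 units on average. The 54 lower members had a median difference of -1.36, or 2.57-fold lower with fluid, a median range of 0.35 and a widest range of 1.5, for MYCT1, and 8 of them differed by at least 2 log2 units. Over all bright genes the median difference was -0.03 and the median range 0.18. The limit itself is arbitrary. Just inside it were the higher members ISG20, UTP25 and FOXP1, whose smallest differences were 1.0009, 1.0085 and 1.0089, and the lower members DUS1L, GSTT2 and ATP5MC1, with 1.0011, 1.0047 and 1.0128. Just outside were DNAJB9, SCEL and MND1 on the higher side, with 0.9974, 0.9964 and 0.9926, and BAIAP2, NOC2L and NUBPL on the lower side, with 0.9998, 0.9989 and 0.9973. A second bright probe set existed for 49 members. Of these 70 further probe sets 52 met the rule as well and 69 had the same sign, the exception being one of TRIM38 at -0.03.

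The members were also set against medium, which the rule used only in the choice of probe set. The most frequent pattern among the higher members was a level below medium with butyrate and near medium with fluid. Butyrate was at least 1 log2 unit below medium in 92 of the 145, or 63.4%, against 15.6% of all bright genes. It was within 1 unit in 43 and above in 10. A side was called above or below medium for the 2% fluids only if all 3 arrays were at least 1 unit away, and near it otherwise. The 2% fluids were near medium in 99 of the 145, below in 19, and above in 27, or 18.6%, against 11.5% of all bright genes that were above it and 10.8% that were below. The largest combination, with 70 genes, had fluid near medium and butyrate below it. A further 19 were below medium with both and lower still with butyrate, 10 were above medium with both and higher still with fluid, and 3 (CHAC1, DLGAP1-AS2 and IGFL2) were above medium with fluid and below it with butyrate. Among the 54 lower members butyrate was above medium in 41, or 75.9%, against 15.6% of all bright genes, and below it in 0. In 31 both were above medium and butyrate higher still. In 10 others butyrate alone was above, and the 3 genes that fluid alone took below medium were NT5DC2, PRXL2B and ATP5MC1. Since fluid and butyrate values chose the genes, these shares describe the set and support nothing by themselves.

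**Figure D1:**
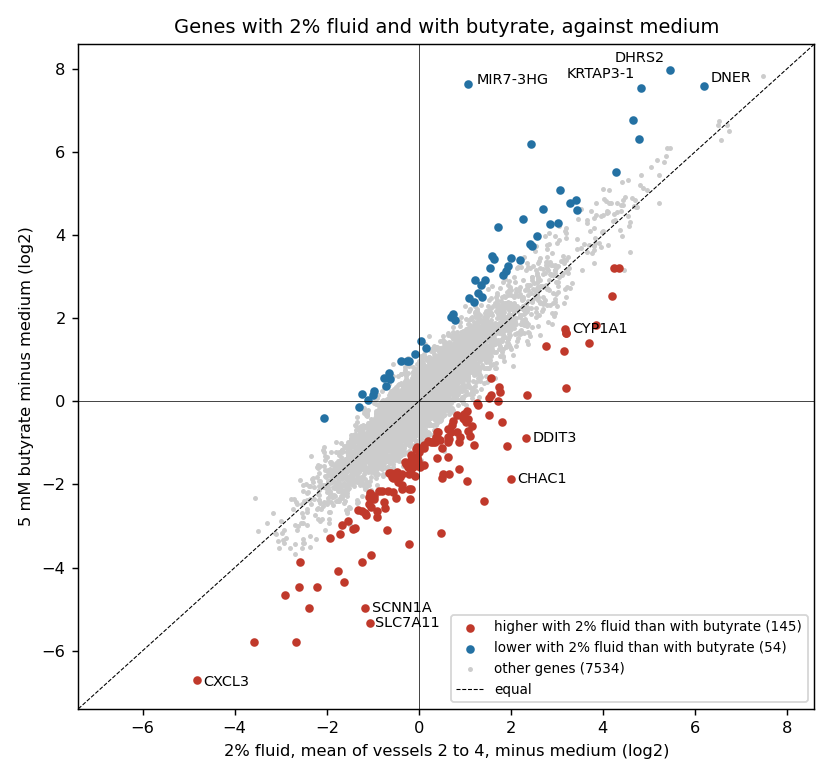
Each point is a gene that reached log2 6 on the brighter side, with its mean in the 3 arrays of 2% fluid (vessels 2 to 4) minus medium on the x axis and butyrate minus medium on the y axis, both in log2 units. Red points are the 145 members higher with 2% fluid than with butyrate, blue points the 54 lower ones, grey points the 7534 other genes, and the dashed line marks equal values. Most red points lie near 0 on the x axis and below 0 on the y axis, and most blue points are above 0 on both.

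The ATF4 response was the list with the most members. Of the 25 genes on the ATF4 list 21 were bright, and 12 of these were higher with 2% fluid than with butyrate while 0 were lower. Over all bright genes 1.88% were higher and 0.698% lower. This and the other lists were written with earlier results of these data known, so their counts are a description. The median difference over the 21 was 1.40, beside -0.03 over all bright genes. SLC7A11, the cystine importer that supplies glutathione synthesis, had the largest difference of all higher members. It was at 10.03, 10.53 and 10.72 with 2% fluid from vessels 2, 3 and 4 and at 6.17 with butyrate, a 19.2-fold difference. Medium had 11.50, so the fluids were nearer to medium and butyrate far below both. CHAC1, an enzyme that degrades glutathione, was at 10.18, 10.26 and 10.13 with 2% fluid, against 6.34 with butyrate and 8.19 in medium. Here fluid was above medium and butyrate below it, and the difference between them was 14.4-fold. DDIT3, also known as CHOP, a transcription factor of prolonged stress, was at 11.45, 11.77 and 11.70 with 2% fluid, against 8.41 with butyrate and 9.31 in medium. With NaCl DDIT3 was at 6.86.

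ATF3, a stress-induced transcription factor, was at 11.59, 12.01 and 11.96 with 2% fluid, against 9.64 with butyrate and 9.50 in medium. The fluids were above both, while NaCl, at 7.68, was below them. TRIB3, a pseudokinase that ATF4 and DDIT3 induce and that restrains them, was at 10.65, 10.86 and 11.03 with 2% fluid, against 7.63 with butyrate and 11.07 in medium. Fluid and medium were alike for this gene, and butyrate was lower than both. SESN2, an inhibitor of the growth kinase mTORC1, was at 8.38, 9.04 and 8.78 with 2% fluid, against 6.49 with butyrate and 7.53 in medium. ASNS, the asparagine synthetase, was at 13.05, 13.24 and 13.21 with 2% fluid, against 11.76 with butyrate and 12.19 in medium. The transcript of ATF4 itself differed least of the 12, with 12.30, 12.42 and 12.47 with 2% fluid, 11.17 with butyrate and 12.39 in medium. The other 4 members on the list were GDF15, a stress cytokine, DDIT4, another inhibitor of mTORC1, PSAT1, of serine synthesis, and PCK2, the mitochondrial form of phosphoenolpyruvate carboxykinase. They differed from butyrate by 1.93, 1.76, 1.41 and 1.54.

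Not every gene of the list took part. CEBPB, SLC3A2, SLC7A5 and VLDLR differed by 0.75, 0.88, 0.61 and 0.55, and MTHFD2 by 1.10 on average without reaching 1 in each array. The serine and cysteine enzymes PHGDH, PSPH, SHMT2 and CTH were within 0.15 of butyrate on average. Several members outside the list, picked out after their values were seen, are also known to respond to ATF4 or to misfolded proteins. They include AARS1, the alanyl-tRNA synthetase (1.29), CEBPG, a partner of ATF4 (1.22), GTPBP2, a ribosome rescue factor (1.77), and PPP1R15A, which restores translation after stress (1.33). HERPUD1, of protein degradation at the endoplasmic reticulum, was at 12.996, 13.10 and 13.04 with 2% fluid, against 11.26 with butyrate and 11.98 in medium. XBP1, a transcription factor of the unfolded protein response, was at 8.0, 7.93 and 8.38 with 2% fluid, against 5.37 with butyrate and 9.72 in medium, so both were below medium. Of the 18 bright genes on the list of endoplasmic reticulum chaperones and unfolded protein genes HERPUD1 and XBP1 were members. Over all bright genes 1.88% were higher and 0.698% lower. The median difference of that list was -0.06.

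**Figure D2:**
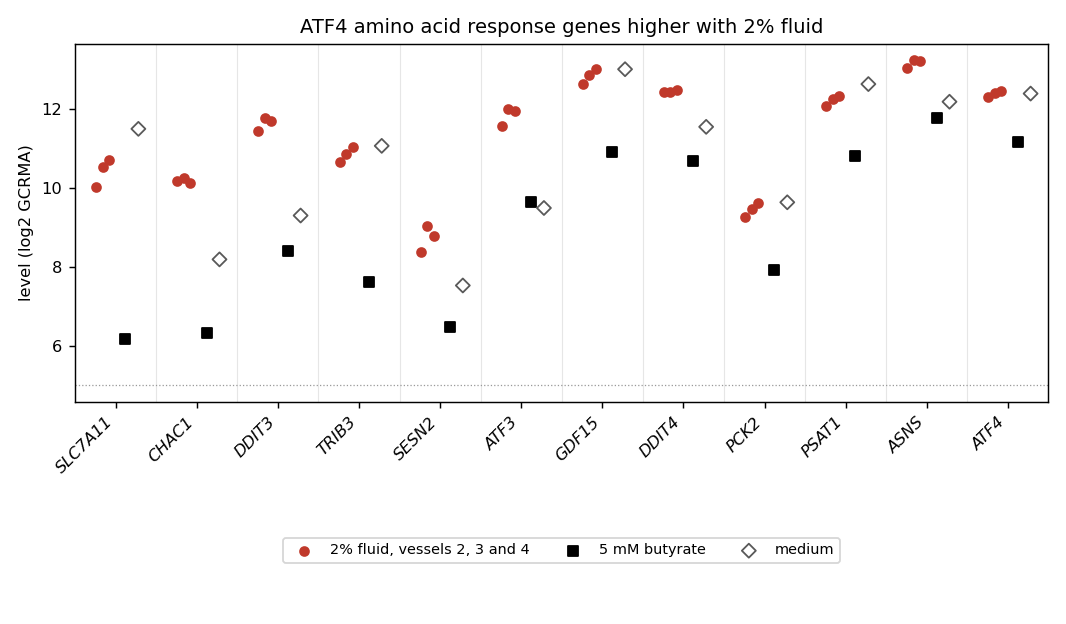
The y axis gives the log2 GCRMA level of the 12 ATF4 list members, ordered by their difference. Red points are the 3 arrays of 2% fluid (vessels 2 to 4 from left to right), the black square is the butyrate array and the open diamond the medium array, and the dotted line marks log2 5. In every gene the red points lie above the square, while the diamond lies near the red points for TRIB3, GDF15, PCK2 and ATF4 and near the square for ATF3.

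ATF4 binds composite elements, in which a C/EBP site and an ATF site are joined. The letters TGATGNAA were searched on both strands between 250 bases before and 50 after the listed starts in RefSeq promoters of build GRCh38.p14, where 167 members had an entry. They occurred in 4.46% of 27305 genes, in 15 of 122 higher members (12.3%), in 1 of 45 lower members (2.22%) and in 3 of the 11 ATF4 list members with a promoter. Those 3 are shown because they include CHAC1 and ATF3, for which the fluids were above medium. The windows are chr7:97872429-97872506 on the minus strand for ASNS, chr1:212565186-212565263 on the plus strand for ATF3 and chr15:40953232-40953309 on the plus strand for CHAC1, read 5′ to 3′ along the gene. Capitals mark the match, which begins 68, 191 and 209 bases before the start in these genes. In CHAC1 it lies on the opposite strand and reads as its reverse complement.
ASNS: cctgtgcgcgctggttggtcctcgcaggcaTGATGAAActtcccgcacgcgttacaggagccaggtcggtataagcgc
ATF3: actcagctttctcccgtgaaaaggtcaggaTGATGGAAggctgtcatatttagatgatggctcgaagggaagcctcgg
CHAC1: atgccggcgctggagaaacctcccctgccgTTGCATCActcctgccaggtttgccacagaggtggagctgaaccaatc
A match is a description of letters and not evidence of binding. AARS1, CEBPG, HERPUD1 and IFRD1 were among the other higher members that had one.

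Among the 27 higher members for which fluid was above medium, several lie outside the ATF4 list. SPRR2B, a protein of the cornified envelope of stratified epithelia, was at 9.09, 9.38 and 9.38 with 2% fluid, against 6.4 with butyrate and 6.09 in medium. Its probe set belongs to a type that can bind related transcripts, so other SPRR2 genes may add to the value. OSGIN1, a stress gene induced by oxidation, was at 6.92, 7.19 and 7.20 with 2% fluid, against 4.81 with butyrate and 5.30 in medium, a difference of at least 4.30-fold from the limit of log2 5. FASN, the fatty acid synthase, was at 10.22, 10.60 and 10.26 with 2% fluid, against 8.92 with butyrate and 8.78 in medium. In these 3 genes butyrate stayed within 1 unit of medium, and the fluids stood apart from both.

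FBXO32, a subunit of a ubiquitin ligase also called atrogin-1, was above medium with both treatments, at 8.95, 9.22 and 9.53 with 2% fluid and 6.93 with butyrate, against 5.52 in medium. CYP1A1, the classic target of the aryl hydrocarbon receptor, was at 8.02, 8.03 and 8.36 with 2% fluid, against 6.60 with butyrate and 4.95 in medium. It was higher still with 0% fluid, at 8.90, 9.0 and 9.64 in vessels 2 to 4, and at 7.51 with NaCl. DBP, a clock transcription factor, was at 9.09, 9.0 and 8.99 with 2% fluid, against 7.89 with butyrate and 4.68 in medium. CDA, the cytidine deaminase, was at 7.89, 7.25 and 7.70 with 2% fluid, against 5.94 with butyrate and 3.41 in medium. For these 4 genes butyrate was part of the way between medium and fluid. IGFL2, of a small family of secreted proteins, was at 9.19, 9.04 and 9.20 with 2% fluid, against 6.15 with butyrate, 7.22 in medium and 9.52 with NaCl. DLGAP1-AS2, an antisense transcript, was at 6.92, 7.08 and 7.30 with 2% fluid and under log2 5 with butyrate (3.30), a difference of at least 4.29-fold.

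The chemokines formed the next group. Of the 39 genes of the NF-kB and chemokine list that were matched, 20 were bright, of which 9 were higher with 2% fluid and 0 were lower, with a median difference of 0.97. Over all bright genes 1.88% were higher and 0.698% lower. The 9 members differed in their relation to medium. CXCL2 was at 9.18, 9.23 and 9.50 with 2% fluid, against 6.16 with butyrate and 11.96 in medium. CXCL1 was at 8.05, 8.03 and 8.33 with 2% fluid, against 5.56 with butyrate and 10.52 in medium. CXCL5 was at 11.23, 11.02 and 11.54 with 2% fluid, against 9.01 with butyrate and 13.48 in medium. All of these attract neutrophils through the receptor CXCR2, and in each case 2% fluid was below medium and butyrate lower again. CXCL3 repeated the order with the widest span, at 6.94, 6.52 and 7.08 with 2% fluid, 4.98 with butyrate and 11.68 in medium, a difference from butyrate of at least 3.60-fold. The probe sets of CXCL2 and CXCL5 are of the type that can bind related transcripts.

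In contrast to these, CXCL8, the chief neutrophil chemokine of human epithelia, stayed at the level of medium with fluid, at 12.00, 12.15 and 12.32 with 2% fluid, against 10.87 with butyrate and 12.20 in medium. With NaCl CXCL8 was at 8.8. NFKBIA, the inhibitor that NF-kB induces against itself, lay between medium and butyrate with fluid, at 8.88, 9.10 and 9.31 with 2% fluid, 7.81 with butyrate and 10.07 in medium. The remaining 3 were above medium with fluid. CCL20, which attracts dendritic cells and lymphocytes through CCR6, was at 12.63, 12.62 and 12.65 with 2% fluid, against 11.60 with butyrate and 11.05 in medium. With NaCl CCL20 was at 7.83. CX3CL1, or fractalkine, was at 7.77, 8.17 and 8.15 with 2% fluid, against 6.30 with both butyrate and medium. CCL26, which attracts eosinophils, was at 8.96, 8.57 and 8.6 with 2% fluid, against 6.77 with butyrate and 5.56 in medium, and NaCl had 13.01. Among bright list genes that were not members, IL18, IL32 and NFKB2 differed by less than 1 unit in every array, with 10.91, 10.71 and 10.87 against 10.76, 7.37, 7.21 and 7.48 against 7.55, and 8.28, 8.48 and 8.38 against 8.30. TNFAIP3, ICAM1 and SOD2, also bright and not members, differed by 0.27, 0.94 and -0.73 on average.

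The list of EGF receptor ligands, which drive epithelial growth and repair, and their receptors had 6 bright genes and a median of 0.81. Its 3 bright ligands were members, while the receptors EGFR, ERBB2 and ERBB3 differed by 0.50, 0.04 and 0.27. Over all bright genes 1.88% were higher and 0.698% lower. EREG was at 11.40, 11.40 and 11.67 with 2% fluid, against 9.16 with butyrate and 13.24 in medium. HBEGF was at 8.11, 8.36 and 8.40 with 2% fluid, against 6.90 with butyrate and 7.82 in medium. TGFA was at 9.56, 9.51 and 9.73 with 2% fluid, against 8.49 with butyrate and 10.20 in medium. EREG thus followed the neutrophil chemokines in its order, while HBEGF and TGFA with fluid were within 1 unit of medium.

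**Figure D3:**
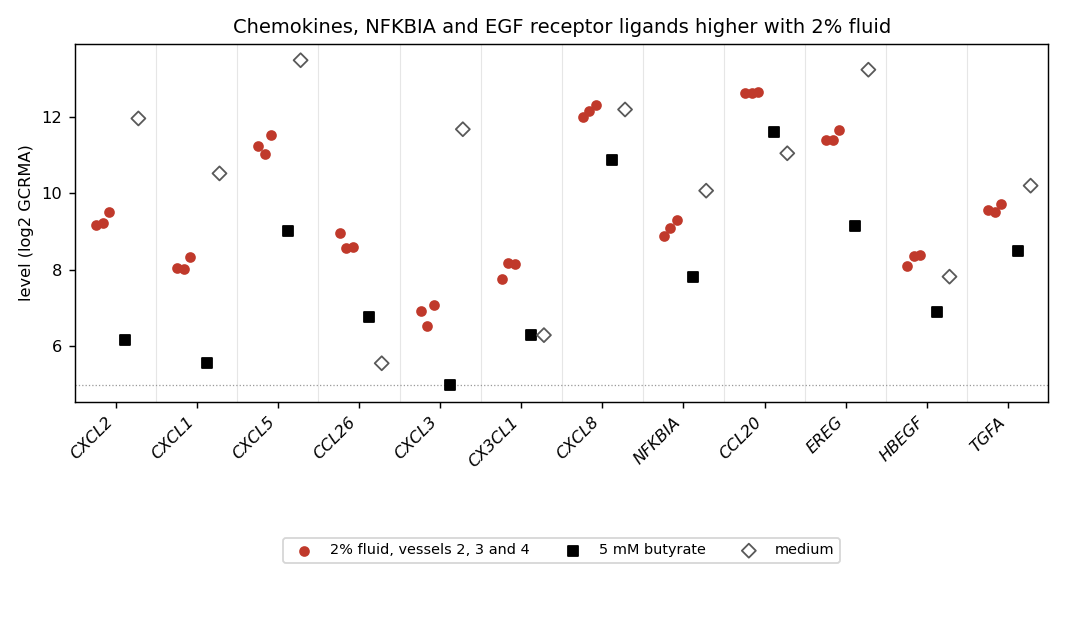
The y axis gives the log2 GCRMA level of the 9 members on the NF-kB and chemokine list and of the 3 EGF receptor ligands, with red points for the 3 arrays of 2% fluid (vessels 2 to 4 from left to right), a black square for butyrate, an open diamond for medium and a dotted line at log2 5. For CXCL1, CXCL2, CXCL3, CXCL5 and EREG the order is medium, fluid, butyrate from high to low. For CCL20, CCL26 and CX3CL1 the red points are the highest.

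The NF-kB consensus was found in the promoters of 6 of the 8 NF-kB list members with an entry, in 18 of 122 higher members (14.8%), in 5 of 45 lower members (11.1%) and in 7.09% of all genes. The stretches around it are shown for these 6 because CXCL1, CXCL2 and CXCL3 have the same match at nearly the same place and CXCL5 carries it as well, NFKBIA carries most of its letters on the opposite strand, and CCL20 has other letters. They are chr4:73869284-73869364 (plus strand) for CXCL1, chr4:74099223-74099303 (minus) for CXCL2, chr4:74038718-74038798 (minus) for CXCL3, chr4:73998718-73998798 (minus) for CXCL5, chr2:227813733-227813812 (plus) for CCL20 and chr14:35404781-35404860 (minus) for NFKBIA, all from RefSeq on GRCh38.p14 and read 5′ to 3′ along the gene. Capitals mark the match, including overlapping matches on both strands, which begins 79 bases before the start in CXCL1, CXCL3 and CCL20, 78 in CXCL2, 91 in CXCL5 and 81 in NFKBIA.
CXCL1: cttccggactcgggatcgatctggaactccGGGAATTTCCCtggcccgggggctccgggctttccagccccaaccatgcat
CXCL2: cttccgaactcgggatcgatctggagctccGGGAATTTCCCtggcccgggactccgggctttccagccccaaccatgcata
CXCL3: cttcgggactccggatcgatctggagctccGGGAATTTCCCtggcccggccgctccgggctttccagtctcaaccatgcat
CXCL5: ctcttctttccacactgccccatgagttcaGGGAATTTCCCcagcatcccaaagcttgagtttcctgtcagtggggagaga
CCL20: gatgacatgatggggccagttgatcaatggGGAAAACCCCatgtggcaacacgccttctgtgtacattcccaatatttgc
NFKBIA: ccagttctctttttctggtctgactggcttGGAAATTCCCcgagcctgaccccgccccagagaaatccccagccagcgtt
These genes include some whose level with fluid was below medium (CXCL1, CXCL2, CXCL3, CXCL5) and one above it (CCL20), so genes with the motif lay on both sides of medium.

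Several members act in epithelial cells, and of the 9 bright genes on the epithelial identity list CLDN4 was a member. Over all bright genes 1.88% were higher and 0.698% lower. SCNN1A, a subunit of the epithelial sodium channel, was at 8.15, 8.18 and 8.57 with 2% fluid and 9.46 in medium, while butyrate had 4.50, under the limit, a difference of at least 9.88-fold. EHF, an epithelial transcription factor of the ETS family, was at 10.21, 10.25 and 10.46 with 2% fluid, against 7.64 with butyrate and 11.35 in medium. TNFSF15, a cytokine of the TNF family tied to inflammatory bowel disease, was at 9.87, 10.22 and 10.35 with 2% fluid, against 6.50 with butyrate and 9.67 in medium. In all 3 the fluids were closer to medium than to butyrate, which was far below. KCNE3, a potassium channel subunit that serves chloride secretion in the colon, was at 7.10, 6.94 and 7.46 with 2% fluid, against 5.43 with butyrate and 10.07 in medium, so the fluids were well below medium too. ACSL5, which activates fatty acids, was at 8.44, 8.57 and 8.78 with 2% fluid, against 6.71 with butyrate and 11.20 in medium. CLDN4, a tight junction protein for which butyrate was near medium, was at 9.75, 9.84 and 9.96 with 2% fluid, against 8.69 with butyrate and 9.02 in medium. MUC20, a membrane mucin, differed by 1.49, RNF43, a brake on Wnt signalling, by 1.72, VEGFA, the angiogenic growth factor, by 1.83, and PPARG, a nuclear receptor of fatty acids, by 1.14. RGS3, which dampens G protein signals, and CYP39A1, a sterol hydroxylase, were under log2 5 with butyrate, with differences of at least 5.57-fold and 5.00-fold. RGS3 was at 7.43, 7.40 and 7.60 with 2% fluid, and CYP39A1 at 7.27, 7.19 and 7.51. Another bright probe set of CYP39A1 differed by only 0.12 on average and did not meet the rule.

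Single members of further lists had the same direction. FOSL1, a subunit of the growth-induced factor AP-1, was at 6.64, 6.93 and 6.75 with 2% fluid and under log2 5 with butyrate (4.14), at least 3.41-fold apart. SLC38A1, a glutamine importer, was at 10.88, 11.09 and 11.08 with 2% fluid, against 9.37 with butyrate and 12.44 in medium. BHLHE40, a transcription factor of the hypoxia list, was at 9.48, 9.47 and 9.43 with 2% fluid, against 7.71 with butyrate and 8.30 in medium. These 3 were higher with 2% fluid than with butyrate, yet BHLHE40 was above medium with fluid and the other two below it. CFLAR, an inhibitor of death receptor signalling, differed by 1.65, OAS1, an interferon-induced antiviral enzyme, by 1.72, the keratin KRT80 by 1.55 and COL4A2, a collagen of the basement membrane, by 1.36.

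The lower members were mostly genes whose level was above medium with butyrate and less so with the fluids. Largest was MIR7-3HG, the host transcript of the microRNA gene MIR7-3, which was under log2 5 in all 3 arrays of 2% fluid (2.60, 3.05 and 2.77) and in medium (1.75) but at 9.38 with butyrate. The difference was thus at least 20.9-fold, and none of the 12 fluid arrays had more than 3.05. The array reads the host transcript and not the microRNA. The mature hsa-miR-7-5p that this locus can give, at chr19:4770700-4770723 on the plus strand of GRCh38.p14 in RefSeq, is shown with its seed, bases 2 to 8, in capitals.
hsa-miR-7-5p: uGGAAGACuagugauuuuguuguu
ENPP2, the enzyme autotaxin that makes the lipid signal lysophosphatidic acid, had a like pattern, with 4.26, 3.92 and 3.84 with 2% fluid, 7.76 with butyrate and 1.56 in medium, at least 6.78-fold lower with fluid. In both genes butyrate alone gave a level over the limit.

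Other lower members were above medium with both. KRTAP3-1, a keratin-associated protein of hair, was at 10.74, 10.46 and 9.93 with 2% fluid, against 13.09 with butyrate and 5.55 in medium. DHRS2, a dehydrogenase known to be induced by butyrate, was at 7.31, 7.66 and 6.85 with 2% fluid, against 9.79 with butyrate and 1.82 in medium. ZCCHC12, a zinc finger protein, was at 7.72, 7.97 and 7.63 with 2% fluid, against 9.89 with butyrate and 3.12 in medium. DNER, a membrane protein that binds Notch, was at 8.06, 7.84 and 7.42 with 2% fluid, against 9.17 with butyrate and 1.58 in medium. In each of these 4 the fluids were nearer to butyrate than to medium on the log2 scale. SLC40A1, the iron exporter ferroportin, was at 5.43, 5.11 and 5.31 with 2% fluid and 6.46 with butyrate, and KLF2, a transcription factor, at 8.19, 8.24 and 8.16 with 2% fluid and 9.38 with butyrate. VIM, the mesenchymal filament protein vimentin, was at 5.11, 4.96 and 4.96 with 2% fluid, against 6.80 with butyrate and 3.38 in medium, and GAST, the hormone gastrin, at 5.41, 4.66 and 4.61 with 2% fluid, against 6.80 with butyrate and 3.29 in medium. PRSS35, a protease-like protein, was at 4.82, 4.74 and 4.78 with 2% fluid and 6.22 with butyrate, but NaCl had 10.59. SERPINI1, a protease inhibitor called neuroserpin, was at 6.71, 6.80 and 6.70 with 2% fluid, against 8.23 with butyrate and 3.45 in medium. PRADC1, HPCAL4, a calcium sensor, and SLAIN1, a microtubule protein, differed by -1.67, -1.53 and -1.44. LRRC15 was under log2 5 in all arrays of 2% fluid, and at least 3.42-fold lower than with butyrate.

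For other lower members the fluids were near medium or below it. HES6, a transcription factor of the Notch list, was at 5.70, 5.98 and 5.33 with 2% fluid, against 7.06 with butyrate and 4.57 in medium. IL11RA, the interleukin 11 receptor, was under log2 5 in all arrays of 2% fluid and in medium (3.28), and at least 2.29-fold lower than with butyrate. ATP5MC1, a subunit of ATP synthase, was at 8.12, 7.82 and 7.91 with 2% fluid, against 9.13 with butyrate and 9.26 in medium. ID1, an inhibitor of differentiation factors, was at 9.19, 9.01 and 9.22 with 2% fluid, against 10.24 with butyrate and 9.85 in medium. Here butyrate lay near medium and the fluids lower. SAP30L, a subunit of a histone deacetylase complex, was instead level with medium with fluid, at 5.59, 5.47 and 5.41 against 6.90 with butyrate, and medium had 5.45.

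**Figure D4:**
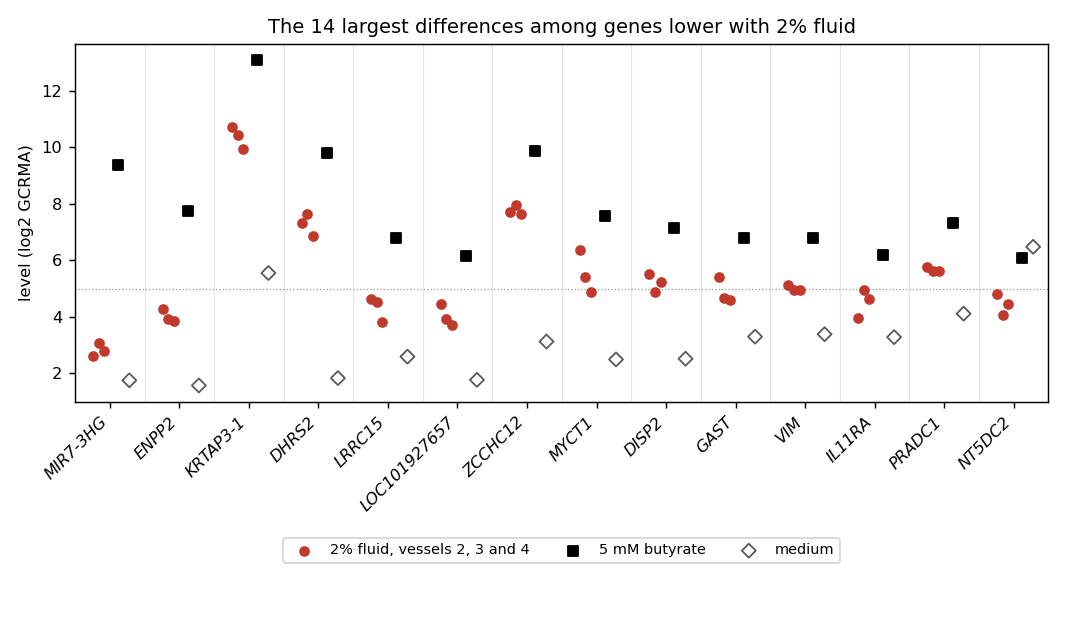
The y axis gives the log2 GCRMA level of the 14 lower members with the largest difference, ordered by it, with red points for the 3 arrays of 2% fluid (vessels 2 to 4 from left to right), a black square for butyrate, an open diamond for medium and a dotted line at log2 5. Butyrate is highest in all but NT5DC2, where medium is, and for MIR7-3HG and ENPP2 all red points and the diamond are under the dotted line.

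The other fluids were set against butyrate too. On the fluid side the rule used these arrays only in the choice of probe set. The butyrate array that chose the members was shared, which favours the same side. Of the 145 higher members 129 were at least 1 log2 unit above butyrate in vessel 1 of 2% fluid, 142 in all 3 of vessels 2 to 4 with 1% fluid and 125 in those with 0% fluid. Of the genes bright in these comparisons 8.36%, 3.54% and 5.93% were that far above. Of the 54 lower members 48, 46 and 43 were that far below, against 5.58%, 1.61% and 3.26% of the genes bright there. The 16 higher members that did not reach it in vessel 1 of 2% fluid included ATF3, SESN2, ASNS and CCL20. The median level of the higher members over vessels 2 to 4 was 8.95 with 0%, 8.62 with 1% and 8.29 with 2% fluid, against 6.47 with butyrate and 8.26 in medium. For the lower members it was 4.91, 5.28 and 5.64 with these fluids, against 7.12 with butyrate and 4.00 in medium. The 2% values are those that chose the members. Vessel 1 had another order, with 8.33, 9.18 and 8.84 for the higher and 4.89, 4.52 and 4.91 for the lower members at 0%, 1% and 2%. The median of the 12 ATF4 list members was 10.93, 10.83 and 11.54 in vessels 2 to 4 with 0%, 11.43, 11.85 and 11.77 with 1% and 11.52, 11.89 and 11.83 with 2% fluid, against 9.03 with butyrate.

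A comparison of 0% fluid with medium uses, on both sides, arrays that entered the rule only in the choice of probe set. All 145 higher members were bright there. In vessels 2 to 4, 31 of them were at least 1 log2 unit above medium in every array, or 21.4%, against 7.40% of all genes bright there. A further 3, or 2.07%, were that far below, against 4.37%. CHAC1 and DDIT3 were among the 31, with 9.61, 9.45 and 9.84 for CHAC1 and 10.75, 10.49 and 11.30 for DDIT3 with 0% fluid in vessels 2 to 4. CCL20, CCL26 and CX3CL1 were too. Fluid without polydextrose from vessels 2 to 4 was therefore already above medium for these genes. This did not extend to vessel 1 for CHAC1, which was at 7.56 there with 0% fluid, against 8.19 in medium. Of the lower members 15 were bright in this comparison, with 2 above and 1 below. Medium is a single array, so there is no test.

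Whether the members differed between the 1% and the 0% polydextrose fluid was tested with limma on vessels 2 to 4. The rule used these arrays only in the choice of probe set, and the 2% arrays entered the fit through its vessel terms and residual spread. In all, 587 of 8719 genes rose, or 6.73%, and 551 fell, or 6.32%, at an adjusted p under 0.05 (Benjamini-Hochberg over all genes tested). The vessels of a concentration belong to 1 simulation, so p-values measure only the spread between these arrays and not that between simulations. All 145 higher members were tested, of which 8 rose (5.52%), 25 fell (17.2%) and 112 did not pass, with a median change of -0.08. The share that rose is near that of all genes and the share that fell is above it. The relation to medium was also noted, although these classes were made with the 2% fluid and butyrate values, overlap by 3 genes, CHAC1 among them, and were not tested against each other. Of the 92 higher members for which butyrate was below medium 23 fell and 2 rose, while of the 27 for which 2% fluid was above medium 7 rose and 0 fell.

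Of the 8 higher members that rose, 4 were on the ATF4 list. Of the 21 tested genes on that list 4 rose, 0 fell and 17 did not pass. Of all genes tested 6.73% rose and 6.32% fell. ATF3 was at 11.71 ± 0.21 with 1% and 10.70 ± 0.50 with 0% fluid (SD, n = 3 each), a rise of 1.01 by limma (SE 0.18, adjusted p = 0.0165). DDIT3 was at 11.65 ± 0.23 with 1% and 10.85 ± 0.41 with 0% fluid (rise 0.81, limma adjusted p = 0.0289), and SESN2 at 8.61 ± 0.16 and 7.80 ± 0.46 (rise 0.81, limma adjusted p = 0.0276). CHAC1 was at 10.25 ± 0.18 with 1% and 9.64 ± 0.20 with 0% fluid (rise 0.62, limma adjusted p = 0.0163). The other rises were those of FBXO32 (0.69), GEM (0.48), DBP (0.41) and CCL20 (0.35, limma adjusted p = 0.0471). In 19 alternative fits CCL20 did not pass in 13, GEM in 10 and FBXO32 in 8. DBP did not pass in 5 of 18. SLC7A11 (-0.22) and TRIB3 (0.24), which had large differences from butyrate, did not pass with 1% against 0% fluid, at limma adjusted p = 0.326 and 0.201.

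The largest fall was that of CXCL3. It was at 7.44 ± 0.46 with 1% and 9.10 ± 0.47 with 0% fluid (SD, n = 3 each), and fell by 1.66 (SE 0.16, limma adjusted p = 0.00556). CXCL2 fell by 0.91 (limma adjusted p = 0.00945), CXCL5 by 0.91 (0.00562) and CXCL1 by 0.65 (0.0118). Of the 24 tested genes on the NF-kB and chemokine list 7 fell and 1, CCL20, rose, while CXCL8 (-0.01) and NFKBIA (-0.03) did not pass, at limma adjusted p = 0.964 and 0.854. Of all genes tested 6.32% fell and 6.73% rose. TMEM52B, a membrane protein, was at 8.12 ± 0.18 with 1% and 9.38 ± 0.03 with 0% fluid and fell by 1.26. SLC7A7, which carries basic amino acids, fell by 1.01, KCNE3 by 0.99, NSMAF, of sphingolipid signalling, by 0.80, EREG by 0.75, and SCNN1A by 0.69. All of these falls were towards the level with butyrate. The rule chose genes that lie above butyrate with fluid, so that direction was given in advance and is no result.

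Of the 54 lower members 16 were not tested for low signal. Of the 38 tested 10 rose (26.3%), 2 fell (5.26%) and 26 did not pass. Of all genes tested 6.73% rose and 6.32% fell, so the share of lower members that fell is near that of all genes. ZCCHC12 rose by 1.28, TENT5B, a poly(A) polymerase, by 1.24, KLF2 by 0.64 and PIK3R3, a regulatory subunit of PI 3-kinase, by 0.57. With 0% fluid ZCCHC12 was at 5.29, 4.92 and 4.56, and REEP1, which also rose, at 4.71, 5.03 and 4.20. Both were mostly under log2 5 there, so their rises are a description only. The 2 falls were those of ID1 (-0.59) and FOXRED1, an assembly factor of respiratory complex I (-0.33). All 10 genes that rose belonged to the 31 that were above medium with both 2% fluid and butyrate. In 5 of the 10 all arrays of 0% fluid were under log2 5, so these passed the signal filter through the other concentrations and their calls and count are a description only. Among them, DNER was at 6.61 ± 0.35 with 1% and 4.43 ± 0.46 with 0% fluid (SD, n = 3 each), and DHRS2 at 5.97 ± 0.33 and 4.12 ± 0.42. From the limit, 1% fluid was higher by at least 1.61 for DNER, 0.97 for DHRS2, 0.38 for MIR550A3HG and 0.32 for HPCAL4, while SLAIN1 was under it on average with both.

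**Figure D5:**
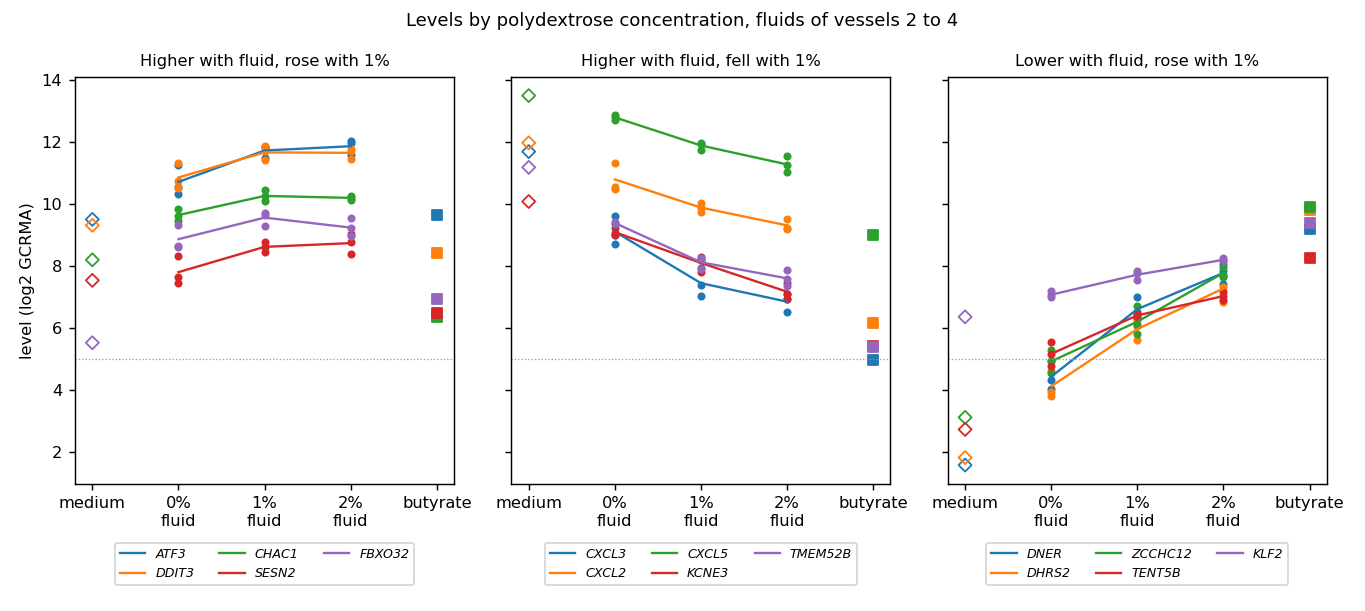
The y axis gives log2 GCRMA levels and the x axis medium, the fluids of vessels 2 to 4 at 0%, 1% and 2% polydextrose, and butyrate. Each colour is a gene named in the legend, points are single arrays, lines join the means of 3 arrays, diamonds are medium, squares are butyrate and the dotted line marks log2 5. In the left panel levels rose between 0% and 1%, away from butyrate, while in the middle and right panels they moved with concentration towards it. Panels group genes by their side of butyrate and direction of change, so these directions follow from the grouping.

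These counts rested on vessel 1 being left out and on single arrays. With vessel 1 added, so that all 12 fluid arrays were fitted, 235 genes rose and 189 fell, and of the higher members 5 rose and 0 fell, while of the lower members 2 rose and 1 fell. CXCL3, for example, was at 10.37 in vessel 1 with 1% fluid but at 7.82 with 0%, and its change was then -0.61 (limma adjusted p = 0.614). ATF3 (1.37, limma adjusted p = 0.0275) and PIK3R3 (0.63, 0.013) still passed. Leaving out 0% fluid of vessel 2, 3 or 4 gave 11, 8 or 10 falls and 0, 3 or 6 rises among the higher members, and leaving out 1% fluid of vessel 2, 3 or 4 gave 16, 22 or 9 falls and 2, 3 or 2 rises. Among the lower members, 6 rose without 1% fluid of vessel 4. Of the 45 members called, PIK3R3 passed in all 17 alternatives in which it was tested, and 12 others failed in 1 alternative. CXCL3, CXCL2, CXCL5, EREG and KCNE3 were among the 12, and each of these 5 failed in the fit with vessel 1.

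Of 45 gene lists 27 held at least 1 member and 18 held none. Members were so few among bright genes that a short list without one is near the background share. Lists with no member included those of mitosis, DNA replication, histone genes, cholesterol synthesis, glycolysis, heat shock and ribosome biogenesis. The median difference between 2% fluid and butyrate was 0.25 for 24 bright mitosis genes, -0.16 for 29 of DNA replication, 0.25 for 17 of cholesterol synthesis and 0.01 for 21 of glycolysis. In mitosis, 28 of 29 tested genes fell with 1% against 0% fluid in vessels 2 to 4, against 6.32% of all genes tested. That list thus differed between these fluids although none of its genes was a member. Concentration and simulation cannot be told apart here. CDKN1A, the cell cycle inhibitor that butyrate is known to induce, was at 10.80, 11.03 and 10.84 with 2% fluid, against 10.62 with butyrate and 8.92 in medium. CCND1, the G1 cyclin, was at 10.85, 10.95 and 10.93 with 2% fluid and at 10.99 with butyrate. For both genes 2% fluid and butyrate differed by less than 0.5 log2 units. MYC, the growth-promoting transcription factor, was at 9.92, 9.92 and 10.10 with 2% fluid, against 8.94 with butyrate and 11.56 in medium, and missed the rule in 2 arrays. PTGS2, the inducible cyclooxygenase, was at 5.29, 4.53 and 5.55 with 2% fluid and 4.00 with butyrate, too dim to be compared.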

How the data were processed

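Total RNA from 15 cultures was read on Affymetrix arrays, 1 each. As deposited, the log2 values had been background-corrected, normalized and summarized with GCRMA, per the submitters' processing notes, which give no version. That they are log2 values was inferred from their range, 0.173 to 14.457. Settings of the image processing are not given in the sources used here, and array number alone limits precision.

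Of 54675 probe sets 41097 had 1 gene symbol in the platform's annotation, giving 19775 genes, of which 10523 had more than 1 probe set. Levels under log2 5 were treated as low. Where all arrays of one side were low, that side was set to 5 and the difference given as a bound. Differences over a single array were counted from 1 log2 unit and not tested.

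The fit used limma 3.58.1 in R 4.3.3 on the 9 fluid arrays of vessels 2 to 4, with concentration and vessel as factors (4 residual degrees of freedom, median residual SD 0.113), for 8719 genes at log2 5 or more in at least 3 of 9 arrays. Two-sided p-values were adjusted with the Benjamini-Hochberg method over all genes, at a threshold of 0.05. The fit was tested on simulated data. The 2% arrays add to its residual spread.

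Members and the 45 gene lists, written from general knowledge, were chosen with earlier results of these data known. Genes were named by rule: the 10 largest differences per direction, the 5 largest bounds, up to 4 members per list, up to 8 called members per direction, the 3 nearest the limit on each side, and MYC, CDKN1A, PTGS2, CYP1A1 and CCND1. The remaining ATF4, NF-kB and EGF list genes, markers, AARS1, CEBPG, GTPBP2, PPP1R15A, IFRD1, IGFL2, DBP, CDA, VIM, GAST and the examples of ranges and of arrays left out were named after their values were seen. Alternatives covered probe set choice, renormalization, signal limits, arrays left out, vessel 1, the block, the prior and NaCl as control.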

Additional observations from a re-analysis of the deposited data

Results flagged for a closer look

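Levels were screened for single arrays apart from the rest of their concentration, with Dixon's test in 99 groups of 4 arrays. Covered were the members named for the 10 largest differences or the 5 largest bounds per direction. Medians of the higher, lower and ATF4 list members were covered too, while the other named members were not screened. In all, 11 were found where chance gives about 1 in 20. Of these, 9 were arrays of vessel 1. In 2% fluid the vessel 1 array was low for CHAC1 at 9.25 (others 10.13 to 10.26), for ZCCHC12 at 4.28 (7.63 to 7.97) and for SERPINI1 at 5.31 (6.70 to 6.80). In 1% fluid it was low for DNER at 2.98 (6.31 to 6.99), for SERPINI1 at 4.06 (5.96 to 6.10) and for IL11RA at 3.32 (4.12 to 4.16), the last with all arrays under log2 5. It was high for CXCL2 at 11.48 (9.74 to 10.02) and for TNFSF15 at 10.75 (10.44 to 10.48). In 0% fluid CHAC1 was low in vessel 1 at 7.56 (9.45 to 9.84). Outside vessel 1, SLC7A11 in vessel 4 of 0% fluid was at 11.78 (10.93 to 11.06), and SAP30L in vessel 3 of 0% fluid was at 5.73 (5.53 to 5.54). The 3′ minus 5′ value of ACTB was 0.726, 0.924 and 0.620 in vessel 1 of 0%, 1% and 2% fluid, and its part in these levels was not tested.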

How the results depend on the processing

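The members depended on how a gene was read and on the limits more than on normalization. With the mean of all probe sets 84 higher members were left, 47 of them with butyrate below medium. A difference of 1.5 left 48 higher and 10 lower members, and a brighter side of log2 7 left 30 lower members, 21 of them with butyrate above medium, by construction of those limits. With NaCl in place of medium fluid was above it in 43 higher members with 2% and in 49 with 0% polydextrose. Leaving out each 2% array gave 147 to 182 higher and 54 to 90 lower members, 92 to 111, 29 to 44 and 41 to 65 in the classes with butyrate below, fluid above and butyrate above medium, and leaving out each 0% array gave 30 to 34 above medium with 0% fluid. The 90, 44 and 65 came without vessel 2. Of the differences of named genes, UTP25 (-0.04) and DBP (-0.05) turned sign when only probe sets with unique suffixes were read, and the cause was not tested. For 1% against 0% fluid, limma with all 12 fluid arrays gave 235 rises and 189 falls in all, 5 and 0 among higher and 2 and 1 among lower members. From the 6 arrays alone 322 genes rose, 4 higher members rose and 0 lower members fell. Without a signal filter 345 rose, 346 fell and 0 lower members fell. A robust prior gave 13 rises among higher members, the mean of probe sets 6 among lower members, and unique probe sets 378 in all and 5 among higher members, with 1 fall among lower members. Leaving out each of the 9 arrays gave 104 to 602 rises and 89 to 609 falls in all, 0 to 7 and 8 to 28 among higher and 6 to 11 and 0 to 2 among lower members. A vessel number names a stretch of the simulated colon and did not pair the arrays: 9 same-vessel pairs of deviations had correlations of -0.301 to 0.323 and 3 were above 0.1. With no replicate block 678 genes rose and 648 fell, and 8 and 24 higher and 8 and 2 lower members did.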
